A study of Mus musculus with 16 samples.

Results

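Glycolysis, the pentose phosphate pathway and the transcriptional response to low oxygen were followed through 39 genes in neural stem cells (NSC) in which the long noncoding RNA RUS (gene Gm20754) was targeted by an shRNA. The genes were chosen by their role in the pathways: 4 transporters of glucose and lactate, 9 genes of upper and 8 of lower glycolysis, 3 enzymes that make and break fructose 2,6-bisphosphate, 5 genes of pyruvate dehydrogenase and its kinases, 4 of the pentose phosphate pathway and 6 of the hypoxia response. The 39 genes stood on 40 of the 55471 lines of each deposited table, because Aldoa had 2 lines, and all 39 passed the filter on low values on both days. Their place in the pathway was the only criterion, but the list was drawn up with earlier results of these data known.

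The cells came from cortices of C57BL/6 embryos at E15-16 and were transduced with a lentivirus for a scramble shRNA (shRNA CON) or for the shRNA against RUS (shRNA RUS). PolyA RNA was sequenced on day 5 and day 7, with 4 libraries for each shRNA and day, 16 in all. Cells of all 4 groups were grown in medium with FGF2 and serum, and differentiation medium was given from day 5. Day 5 libraries therefore stood at the change of medium and day 7 libraries came after it. Day and medium cannot be told apart. Cortices of embryos of both sexes were pooled, cells could be passaged before use, virus was added the day after seeding, and a single shRNA against RUS was used, so these libraries describe 1 hairpin in cultures of mixed origin. The labels number the libraries 1 to 4 without saying whether they came from separate cultures or animals, so p-values measure the spread between these samples.

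Glycolysis splits glucose into pyruvate in the cytosol: the upper enzymes spend ATP to make triose phosphates, and the lower enzymes, from glyceraldehyde-3-phosphate dehydrogenase onward, gain ATP and NADH. Pyruvate is then either reduced to lactate or enters the mitochondria through pyruvate dehydrogenase, which is switched off by its kinases, and the pentose phosphate pathway branches off at glucose 6-phosphate to make NADPH and ribose. In low oxygen the HIF transcription factors raise many of these genes. Neural progenitors are known for strong glycolysis, and neurons for relying more on oxidative phosphorylation.

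HIF binds DNA at short sites with the core ACGTG. To show where these letters stand, the 250 bases before the start annotated by RefSeq are given here for 5 genes whose results are described further on and whose window holds the core. They were picked after the values were seen. Sequences are from RefSeq on build GRCm38.p6, 5′ to 3′ on the gene's own strand, and capitals mark ACGTG or its complement CACGT, with CACGTG, which holds both overlapping, counted as 1 place. For Slc16a3 and Ldha the RefSeq start lies inside the span that GENCODE gives the gene, so these windows lie within that span. Slc16a3, the lactate exporter MCT4, lies on the plus strand and its window is chr11:120948817-120949066. Pgk1, phosphoglycerate kinase, lies on the plus strand with the window chrX:106186850-106187099. Ldha, the lactate dehydrogenase A chain, lies on the plus strand with the window chr7:46845554-46845803. Pdk2, a pyruvate dehydrogenase kinase, lies on the minus strand with the window chr11:95041372-95041621. Egln3, an oxygen-sensing prolyl hydroxylase and a known HIF target, lies on the minus strand with the window chr12:54203875-54204124.
Slc16a3: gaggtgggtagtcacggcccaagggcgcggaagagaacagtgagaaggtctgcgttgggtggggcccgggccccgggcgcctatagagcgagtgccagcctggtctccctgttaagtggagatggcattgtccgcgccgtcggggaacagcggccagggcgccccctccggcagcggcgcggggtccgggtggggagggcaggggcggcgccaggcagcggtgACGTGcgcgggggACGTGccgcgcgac
Pgk1: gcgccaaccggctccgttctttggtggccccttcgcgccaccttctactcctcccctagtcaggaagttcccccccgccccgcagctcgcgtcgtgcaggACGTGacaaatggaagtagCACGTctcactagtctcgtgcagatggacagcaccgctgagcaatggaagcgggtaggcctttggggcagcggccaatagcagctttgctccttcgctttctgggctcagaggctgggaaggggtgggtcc
Ldha: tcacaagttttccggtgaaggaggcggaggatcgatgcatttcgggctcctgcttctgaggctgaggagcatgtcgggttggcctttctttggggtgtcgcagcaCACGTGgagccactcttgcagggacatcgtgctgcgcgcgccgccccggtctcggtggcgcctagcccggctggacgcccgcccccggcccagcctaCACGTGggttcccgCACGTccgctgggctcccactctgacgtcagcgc
Pdk2: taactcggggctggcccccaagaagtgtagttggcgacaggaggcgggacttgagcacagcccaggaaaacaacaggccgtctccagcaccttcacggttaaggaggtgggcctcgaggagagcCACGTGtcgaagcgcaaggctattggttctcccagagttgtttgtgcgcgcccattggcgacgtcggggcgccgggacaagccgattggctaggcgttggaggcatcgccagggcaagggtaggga
Egln3: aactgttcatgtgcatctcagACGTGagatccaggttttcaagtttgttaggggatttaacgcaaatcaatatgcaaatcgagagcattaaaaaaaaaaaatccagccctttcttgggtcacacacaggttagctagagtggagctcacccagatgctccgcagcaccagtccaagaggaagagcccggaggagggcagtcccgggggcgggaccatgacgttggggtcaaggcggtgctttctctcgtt

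The windows of Slc16a3 and Pgk1 held 2 such places each, that of Ldha 3, and those of Pdk2 and Egln3 1 each. Across the members, 38 of 39 matched an entry of the promoter table (Slc2a3 did not), and 15 of the 38 windows, 39.5%, held the letters on either strand, beside 16.6% of all 32851 windows of that length. By the day 7 call described further on, they stood in 5 of 16 windows of members that were higher in shRNA RUS, in 9 of 16 of members that were lower, and in 1 of 6 of the others. These are matches of letters, not binding sites.

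RUS RNA itself was scarce in these libraries, and the ranges of the groups overlapped on both days. The paper reports lower RUS by RT-qPCR in cells with this shRNA than in control cells. On day 5, Gm20754 stood at 0.24, 0.11, 0.18 and 0.16 TPM (a transcript's share of its library, corrected for transcript length) in shRNA CON. In shRNA RUS it stood at 0.05, 0, 0.12 and 0.32 TPM that day. The library labelled shRNA RUS replicate 4, at 0.32 TPM, lay above all 4 controls of that day. The 15 proliferation genes described further on summed to 524 to 589 TPM in the 4 shRNA RUS libraries of day 5, this one included, and to 1088 to 1164 TPM in the controls. In scaled TPM (TPM divided by a factor per library), Pdk2 and Egln3, the largest increase and decrease among the members that day, stood in this library at 99.9 (controls 60.2 to 60.7) and 12.4 (controls 22.2 to 23.2). Gapdh, which was not called on day 5, stood at 1591, within the controls (1552 to 1676). On day 7, Gm20754 stood at 0.7, 0.72, 0.26 and 0.54 TPM in shRNA CON and at 0.54, 0.38, 0 and 0.04 TPM in shRNA RUS. Values this low cannot settle how far RUS was reduced on either day. Replicate 1 of shRNA RUS, at 0.54 TPM on day 7, lay within the controls. Counts of members are therefore also given without these libraries. Only TPM were given per library, without counts, which leaves sequencing depth unknown, and each day is its own table with no batch named, so day and any run or batch cannot be told apart. The 5 neural stem cell markers summed to 6439 to 17206 TPM in the 16 libraries, and the 4 erythroid genes stayed under 1 TPM in every library, as did Cldn5, Cdh5 and Pecam1 of the 6 endothelial and pericyte markers.

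Values below are scaled TPM, the TPM divided by a factor per library, and fold changes are differences of log2(scaled TPM + 0.1), which understates changes of low genes, given with the standard error (SE). A gene was called when limma's adjusted p, over all genes tested, was under 0.05. On day 5 the factors differed between the groups, 1.02 to 1.11 in shRNA CON and 0.920 to 1.01 in shRNA RUS, so that small day 5 differences depend on the scaling. With TPM as deposited, all genes had a median log2 fold change of −0.205 in place of −0.061, and 22.7% in place of 45.4% of all called genes were higher (34.5% with scaling by the 75th percentile). On day 7 the factors lay between 0.991 and 1.01.

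The 39 genes differed widely in level. Over the 16 libraries, the median TPM was highest for Aldoc, the brain form of aldolase (1450), and for Gapdh (1399), followed by Ldhb (1097) and Aldoa (944), and lowest for Slc16a3 (1.19) and Ankrd37 (1.17). Neighbours in this order had overlapping ranges, except Bnip3, which lay above Pfkl in every library. On day 5, all members together took 1.19% of the TPM with shRNA CON and 1.22% with shRNA RUS, and on day 7 they took 0.911% and 0.851%. In the authors' base mean, a mean of normalized counts over the libraries of a day, Ankrd37 had 13.5 on day 5 and 27.0 on day 7, and Slc16a3 had 50.2 and 88.3, so that these low members rest on few reads, while Aldoc had 63529 and 53901.

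With shRNA RUS the pathway moved in opposite directions along its length on day 7. The entry enzymes and the pyruvate dehydrogenase kinases Pdk2 and Pdk4 were higher. The enzymes from Tpi1, which is listed with upper glycolysis, to lactate dehydrogenase were lower, apart from Eno2. On day 5, 1 of 8 genes of lower glycolysis was higher and 1 lower. Of the 13 increases of that day, 5 were in upper glycolysis and 4 among pyruvate dehydrogenase and its kinases, and the others were Slc16a1, Pgk1, Pgd and Bnip3. Among the hypoxia genes, Egln3 and Vegfa were lower on both days, and Adm was lower on day 5 and higher on day 7.

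On day 5, 13 members were called higher with shRNA RUS and 8 lower, 18 were not called, and the groups did not overlap for 21. Of all 22581 genes tested, 14.8% were called higher and 17.9% lower, and 32.8% did not overlap. The members' median log2 fold change was 0.11, beside −0.061 for all genes. Among genes with a mean of at least 100 scaled TPM, a cutoff chosen after seeing the data because many members are abundant, 45.4% rose and 12.1% fell by the same test, and the median was 0.196. The share of higher members was therefore above that of all genes and below that of abundant genes. Without the library labelled shRNA RUS replicate 4, 18 members were higher and 6 lower: Pfkp, Tpi1, Gapdh, Ldha and Taldo1 were gained as higher, and Pfkfb4 and Tkt were lost.

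On day 7, 16 members were called higher and 17 lower, 6 were not called, and the groups did not overlap for 31. Of 24606 genes tested, 23.4% were called higher and 25.8% lower, and 47.0% did not overlap. Among genes of at least 100 scaled TPM, 34.1% were called higher and 44.2% lower. The members' median log2 fold change was −0.02, beside −0.029 for all genes and −0.060 for abundant genes. Without replicate 1 of shRNA RUS, 16 were higher and 17 lower. Both comparisons are shown gene by gene in the plot of fold changes by pathway step.

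**Figure D1:**
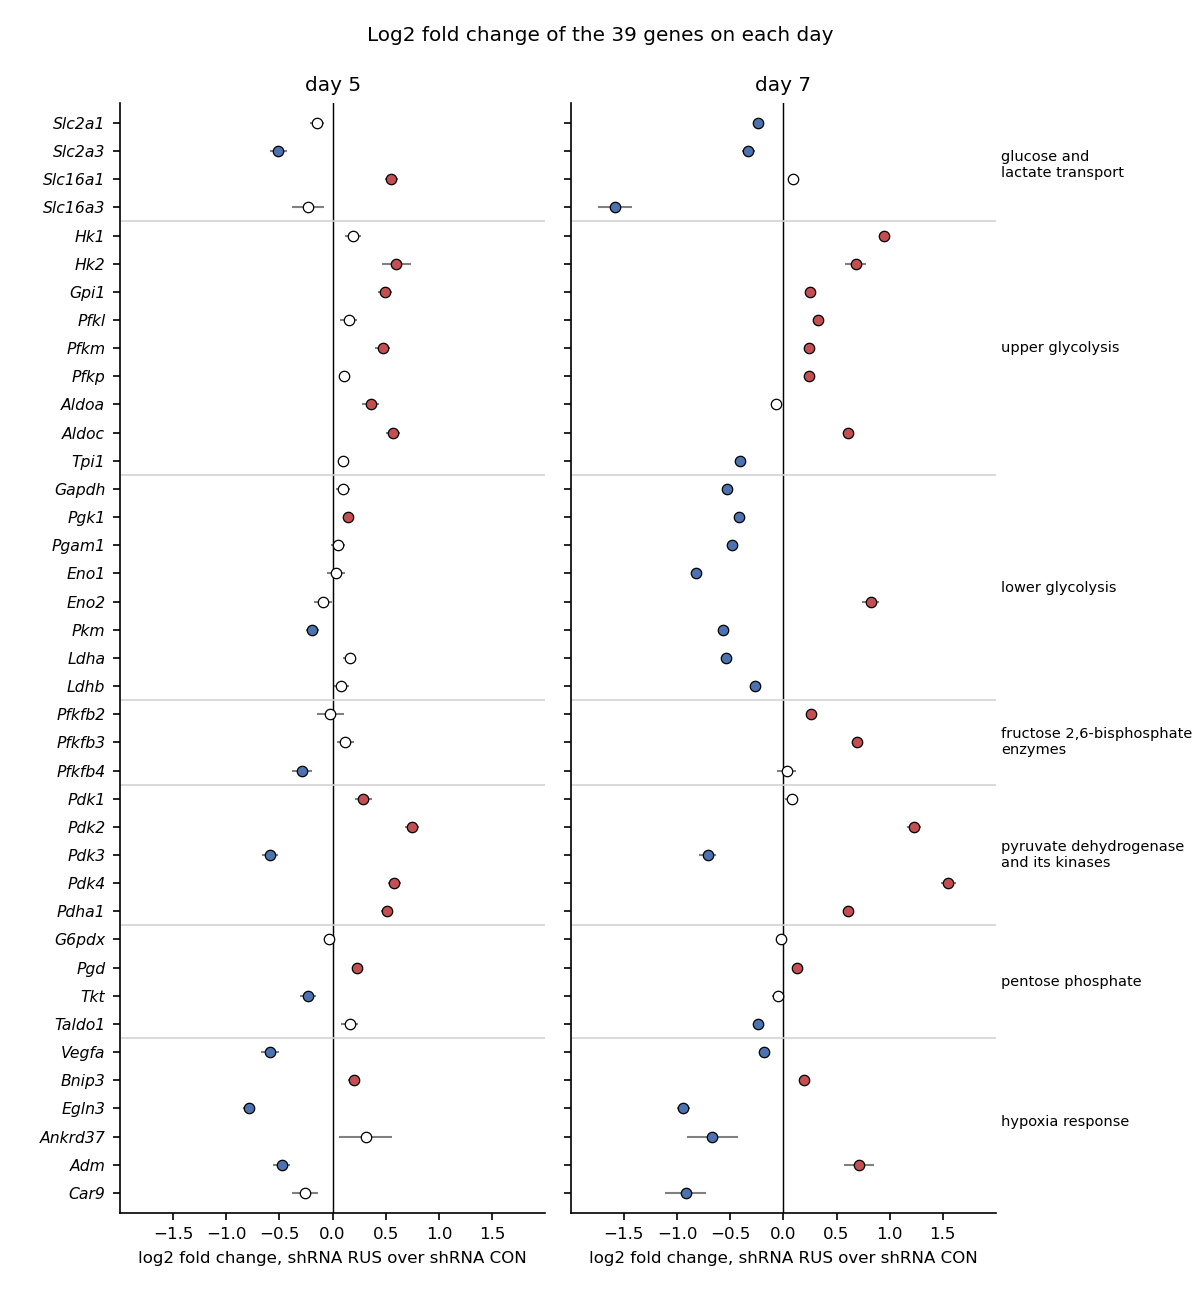
Log2 fold change of each of the 39 genes, shRNA RUS over shRNA CON, with day 5 in the left and day 7 in the right panel, in pathway order, with bars for the SE of limma's fit over 4 against 4 libraries. Red points were called higher, blue points lower and white points not called at an adjusted p of 0.05; on day 7, 7 of 8 genes of lower glycolysis lie left of 0 and Eno2 lies at 0.82.

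Of the 4 glucose and lactate transporters, 1 was higher and 1 lower on day 5, and none was higher and 3 were lower on day 7. All genes gave shares of 14.8% and 17.9% on day 5, and 23.4% and 25.8% on day 7. Slc2a1, the glucose carrier GLUT1, stood on day 7 at 95.6, 91.5, 91.0 and 89.2 scaled TPM in shRNA CON and at 77.7, 77.5, 79.9 and 75 in shRNA RUS. All 4 values with shRNA RUS lay below the controls (log2 fold change −0.24 ± 0.035 SE, limma adjusted p = 0.000303). On day 5 it stood at 51.1, 52.4, 54.6 and 57.5 in shRNA CON and 49.1, 52.2, 48.6 and 44.0 in shRNA RUS, groups that overlapped (log2 fold change −0.15 ± 0.065 SE, limma adjusted p = 0.10), and it was called lower with TPM as deposited, with quantile normalization, with scaling by the 75th percentile and in the fit over all 16 libraries. Slc2a3, the high-affinity carrier GLUT3 known from neurons, stood on day 5 at 24.3, 22.0, 23.3 and 21.6 scaled TPM in shRNA CON and 17.4, 15.4, 14.4 and 17.1 in shRNA RUS, and on day 7 at 14.0, 15, 15 and 16.8 with shRNA CON and 12.2, 12.4, 11.5 and 12 with shRNA RUS. It was lower without overlap on day 5 (log2 fold change −0.51 ± 0.077 SE, limma adjusted p = 0.00107) and on day 7 (log2 fold change −0.33 ± 0.062 SE, limma adjusted p = 0.00148).

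The effect of shRNA RUS on both monocarboxylate carriers differed between the days. Slc16a1, the carrier MCT1, stood on day 5 at 139, 153, 146 and 142 scaled TPM in shRNA CON and 230, 207, 194 and 218 in shRNA RUS. This day 5 increase (log2 fold change 0.55 ± 0.061 SE, limma adjusted p = 0.000212) was not called on day 7, when the values were 123, 124, 127 and 129 with shRNA CON and 138, 133, 134 and 129 with shRNA RUS (log2 fold change 0.09 ± 0.033 SE, limma adjusted p = 0.0562), and the difference between the days was called (difference −0.47 ± 0.069 SE, limma adjusted p = 0.000150). On day 7 it was called higher with TPM as deposited, among genes of at least 1 TPM and without replicate 4 of shRNA CON or of shRNA RUS (limma adjusted p 0.0294 to 0.0489). Slc16a3, the lactate exporter MCT4, stood on day 5 at 0.997, 1.33, 1.10 and 1.21 scaled TPM in shRNA CON and 0.859, 1.04, 1.08 and 0.922 in shRNA RUS, which overlap (log2 fold change −0.23 ± 0.15 SE, limma adjusted p = 0.266). On day 7 it stood at 3.50, 3.57, 3.08 and 4.09 in shRNA CON and 1.22, 0.821, 1.37 and 1.13 in shRNA RUS, and no library with shRNA RUS reached the lowest control. Its day 7 mean was 3.56 ± 0.416 scaled TPM in shRNA CON and 1.13 ± 0.230 in shRNA RUS (SD, n = 4), the largest decrease among the members (log2 fold change −1.58 ± 0.16 SE, limma adjusted p = 3.13e-05), and the effect differed between the days (difference −1.36 ± 0.21 SE, limma adjusted p = 0.000232).

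In upper glycolysis, 5 of 9 genes were higher and none lower on day 5, and 7 were higher and 1 lower on day 7. Called higher were 14.8% of all and 45.4% of abundant genes on day 5, and 23.4% and 34.1% on day 7. Hk1, the hexokinase that serves brain tissue, stood on day 7 at 56.8, 56.4, 58.8 and 54.0 scaled TPM in shRNA CON and 98.4, 112, 114 and 113 in shRNA RUS. The means were 56.5 ± 1.99 and 109 ± 7.36 (SD, n = 4), a 1.93-fold increase without overlap (log2 fold change 0.95 ± 0.053 SE, limma adjusted p = 8.53e-07). On day 5 Hk1 stood at 64.8, 69.2, 64.5 and 69.0 in shRNA CON and 65.9, 81.9, 80.3 and 78.8 in shRNA RUS and was not called (log2 fold change 0.19 ± 0.074 SE, limma adjusted p = 0.0730), and the effect was larger on day 7 (difference 0.74 ± 0.090 SE, limma adjusted p = 3.22e-05). Without replicate 1 of shRNA RUS, the lowest of its group on both days, the day 5 log2 fold change was 0.27 and was called (limma adjusted p = 0.00571). Hk2, the hexokinase linked to proliferating and hypoxic cells, stood on day 5 at 6.30, 6.53, 7.10 and 5.81 scaled TPM in shRNA CON and 7.26, 10.8, 10.5 and 11 in shRNA RUS, and on day 7 at 2.85, 3.0, 3.29 and 2.57 with shRNA CON and 5.06, 4.42, 5.00 and 4.50 with shRNA RUS. Its groups did not overlap on either day, with log2 fold changes of 0.60 and 0.68 (limma adjusted p = 0.00897 and 0.000300).

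Of the 4 genes between hexokinase and the aldol cleavage, Gpi1 and Pfkm were higher on both days and Pfkl and Pfkp on day 7. Gpi1, glucose-6-phosphate isomerase, stood on day 5 at 514, 564, 573 and 566 scaled TPM in shRNA CON and 773, 826, 811 and 698 in shRNA RUS, and on day 7 at 429, 412, 425 and 390 with shRNA CON and 484, 489, 518 and 485 with shRNA RUS. Its increase was smaller on day 7 (0.25) than on day 5 (0.49), a called difference (difference −0.24 ± 0.073 SE, limma adjusted p = 0.0206) that was not called with TPM as deposited (−0.07) and that quantile normalization turned to 0.13. Pfkm, the muscle-type phosphofructokinase, stood on day 5 at 207, 221, 214 and 223 in shRNA CON and 262, 314, 320 and 301 in shRNA RUS, and on day 7 at 123, 117, 125 and 118 with shRNA CON and 135, 147, 151 and 137 with shRNA RUS. It too was higher without overlap on both days (0.47 and 0.24 on the log2 scale), and less so on day 7 (difference −0.24 ± 0.078 SE, limma adjusted p = 0.0302). That difference was not called with any of the 3 other scalings, without the variance trend, or without any 1 of 8 libraries, namely replicate 1 or 3 of shRNA CON on either day, 2 or 3 of shRNA RUS on day 5 and 1 or 4 of shRNA RUS on day 7 (limma adjusted p 0.0522 to 0.0631 without 1 of these). The liver-type Pfkl and the platelet-type Pfkp were higher on day 7 (log2 fold changes 0.33 and 0.24) and not called on day 5 (0.15 and 0.11). Without replicate 1 of shRNA RUS, Pfkl was called higher on day 5 (0.23, limma adjusted p = 0.0268). The day 5 groups of Pfkp did not overlap, and it was called in the fit over all 16 libraries, with a pseudocount of 1, among genes of at least 1 TPM and without replicate 4 of shRNA RUS (limma adjusted p 0.0162 to 0.0489).

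The 2 aldolases differed. Aldoc stood on day 5 at 1202, 1173, 1265 and 1243 scaled TPM in shRNA CON and 1699, 1905, 1970 and 1688 in shRNA RUS, and on day 7 at 1115, 1101, 1053 and 1105 with shRNA CON and 1706, 1617, 1633 and 1730 with shRNA RUS. It was higher without overlap on both days (log2 fold change 0.57 ± 0.068 SE, limma adjusted p = 0.000302, and log2 fold change 0.61 ± 0.035 SE, limma adjusted p = 9.66e-07). Aldoa, the ubiquitous aldolase, stood on day 5 at 928, 925, 962 and 999 in shRNA CON and 1255, 1331, 1280 and 1049 in shRNA RUS, and on day 7 at 950, 881, 908 and 888 with shRNA CON and 850, 848, 903 and 863 with shRNA RUS. It was higher on day 5 (log2 fold change 0.36 ± 0.079 SE, limma adjusted p = 0.00720) and overlapped on day 7 (log2 fold change −0.07 ± 0.035 SE, limma adjusted p = 0.157), with a called difference between the days (difference −0.44 ± 0.084 SE, limma adjusted p = 0.00124); quantile normalization took away the day 5 call and that of the difference, and with 75th percentile scaling it was called lower on day 7 (−0.11, limma adjusted p = 0.0260). A second line for Aldoa, at 1.32 to 4.35 TPM, could hold reads shared with the first and was lower on day 5 (−0.64).

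From triosephosphate isomerase to lactate dehydrogenase, 8 of 9 genes fell on day 7, beside 25.8% of all genes and 44.2% of abundant genes called lower. Tpi1 is counted in the list of upper glycolysis, so this stretch cuts across the lists. It begins at the 1 gene of that list that was lower. Of the 8 genes of lower glycolysis, 1 was higher and 1 lower on day 5, and 7 were lower and 1 higher on day 7, with a median log2 fold change of −0.51. Their summed level was 6275 ± 122 TPM in shRNA CON and 5862 ± 171 TPM in shRNA RUS on day 5, and 4700 ± 99.5 and 3317 ± 89.6 TPM on day 7 (SD, n = 4). The day 5 direction turned with the scaling: in scaled TPM the sums of that day were 5939 ± 270 in shRNA CON and 6195 ± 394 in shRNA RUS, and overlapped. On day 7 the highest sum with shRNA RUS, 3431 TPM, was below the lowest control, 4622 TPM. The sum of upper glycolysis on day 7 was 3058 ± 51.1 TPM in shRNA CON and 3730 ± 66.5 TPM in shRNA RUS. Most of this gap was Aldoc: without it the sums were 1964 ± 56.3 and 2055 ± 65.9 TPM, and overlapped. In bulk RNA, fewer cells of a type and less RNA per cell cannot be told apart.

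Tpi1, triosephosphate isomerase, stood on day 5 at 364, 393, 386 and 377 scaled TPM in shRNA CON and 414, 423, 408 and 379 in shRNA RUS, and on day 7 at 281, 261, 272 and 266 with shRNA CON and 206, 205, 210 and 194 with shRNA RUS. The groups overlapped on day 5 (0.10 on the log2 scale) and were apart on day 7 (log2 fold change −0.41 ± 0.036 SE, limma adjusted p = 1.34e-05). Gapdh, glyceraldehyde-3-phosphate dehydrogenase, a gene often taken as a constant reference, stood on day 5 at 1552, 1669, 1670 and 1676 in shRNA CON and 1839, 1821, 1806 and 1591 in shRNA RUS, and on day 7 at 1204, 1088, 1132 and 1162 with shRNA CON and 783, 780, 811 and 795 with shRNA RUS. Every day 7 value with shRNA RUS was below every control (log2 fold change −0.53 ± 0.036 SE, limma adjusted p = 2.77e-06), while day 5 overlapped (log2 fold change 0.10 ± 0.066 SE, limma adjusted p = 0.270). With the library labelled shRNA RUS replicate 4 left out, Gapdh was higher on day 5 (0.15, limma adjusted p = 0.0403), and with quantile normalization it was lower (−0.15, limma adjusted p = 0.0229), so no day 5 direction holds for it.

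Pgk1, which makes the first ATP of the pathway, stood on day 5 at 643, 678, 673 and 659 scaled TPM in shRNA CON and 744, 739, 737 and 710 in shRNA RUS, and on day 7 at 498, 490, 480 and 500 with shRNA CON and 380, 373, 375 and 341 with shRNA RUS. The small day 5 increase (log2 fold change 0.14 ± 0.046 SE, limma adjusted p = 0.0404) turned to −0.01 with TPM as deposited and to −0.10 with quantile normalization, and was lost without any 1 library other than replicate 4 of shRNA RUS (limma adjusted p 0.0667 to 0.0938). On day 7 the decrease was clear of overlap (log2 fold change −0.42 ± 0.039 SE, limma adjusted p = 1.69e-05). Pgam1, phosphoglycerate mutase, stood on day 5 at 411, 445, 460 and 471 in shRNA CON and 453, 499, 471 and 431 in shRNA RUS, and on day 7 at 401, 401, 401 and 390 with shRNA CON and 278, 289, 304 and 270 with shRNA RUS. It overlapped on day 5 (0.05) and fell on day 7 (log2 fold change −0.48 ± 0.039 SE, limma adjusted p = 7.16e-06). Pkm, pyruvate kinase, stood on day 5 at 647, 658, 682 and 711 in shRNA CON and 586, 626, 609 and 547 in shRNA RUS, and on day 7 at 628, 606, 615 and 596 with shRNA CON and 414, 408, 428 and 402 with shRNA RUS. It was the only gene of lower glycolysis called lower on both days (log2 fold change −0.19 ± 0.059 SE, limma adjusted p = 0.0355, and log2 fold change −0.57 ± 0.031 SE, limma adjusted p = 8.00e-07). Its day 5 call was lost without replicate 2, 3 or 4 of shRNA CON or 1 or 3 of shRNA RUS (limma adjusted p 0.0598 to 0.0986), and without the variance trend or the filter on low values. The tables do not separate its M1 and M2 isoforms.

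The 2 enolases went apart. Eno1, the ubiquitous enolase, stood on day 7 at 905, 839, 855 and 816 scaled TPM in shRNA CON and 484, 490, 502 and 462 in shRNA RUS, after 806, 887, 890 and 943 with shRNA CON and 929, 949, 970 and 762 with shRNA RUS on day 5. Its means on day 7 were 854 ± 37.7 and 485 ± 16.9 (SD, n = 4), the steepest decrease in lower glycolysis (log2 fold change −0.82 ± 0.040 SE, limma adjusted p = 4.67e-07), whereas day 5 overlapped (0.03, and −0.24 with quantile normalization, when it was called lower). Eno2, the neuronal enolase, stood on day 7 at 13.5, 14.3, 12 and 11.5 in shRNA CON and 20.9, 23.5, 22.0 and 24.4 in shRNA RUS, after 17.5, 16.7, 15.5 and 13.9 with shRNA CON and 13.9, 15.1, 15.4 and 15 with shRNA RUS on day 5. Each library with shRNA RUS was above the controls on day 7 (log2 fold change 0.82 ± 0.081 SE, limma adjusted p = 2.59e-05), and the groups overlapped on day 5 (log2 fold change −0.09 ± 0.081 SE, limma adjusted p = 0.411). Beside this, the 6 neuron markers summed to 789 ± 33.7 TPM in shRNA CON and 762 ± 54.3 TPM in shRNA RUS on day 7. Of these 6, Snap25 and Rbfox3 were higher on day 7 (0.61 and 0.53 on the log2 scale), Map2 and Stmn2 were lower (−0.23 and −0.14), and Tubb3 and Dcx were not called. Their part in the Eno2 result was not tested.

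At the end of the pathway, Ldha, which favours lactate production, stood on day 5 at 298, 329, 327 and 324 scaled TPM in shRNA CON and 378, 364, 363 and 324 in shRNA RUS, and on day 7 at 272, 255, 255 and 253 with shRNA CON and 186, 179, 182 and 167 with shRNA RUS. It fell on day 7 (log2 fold change −0.54 ± 0.042 SE, limma adjusted p = 5.97e-06) and overlapped on day 5 (log2 fold change 0.16 ± 0.061 SE, limma adjusted p = 0.0739), where it was called higher without the library labelled shRNA RUS replicate 4 (0.21, limma adjusted p = 0.0107). Ldhb, the chain that favours lactate oxidation, stood on day 5 at 1164, 1347, 1340 and 1332 in shRNA CON and 1374, 1378, 1490 and 1229 in shRNA RUS, and on day 7 at 962, 910, 915 and 914 with shRNA CON and 784, 771, 795 and 719 with shRNA RUS. Its day 7 decrease was smaller (log2 fold change −0.27 ± 0.039 SE, limma adjusted p = 0.000300), and on day 5 it was called lower with quantile normalization alone of the alternatives (−0.23, limma adjusted p = 0.00580). The 9 genes are drawn library by library in the plot of triosephosphate isomerase to lactate dehydrogenase.

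**Figure D2:**
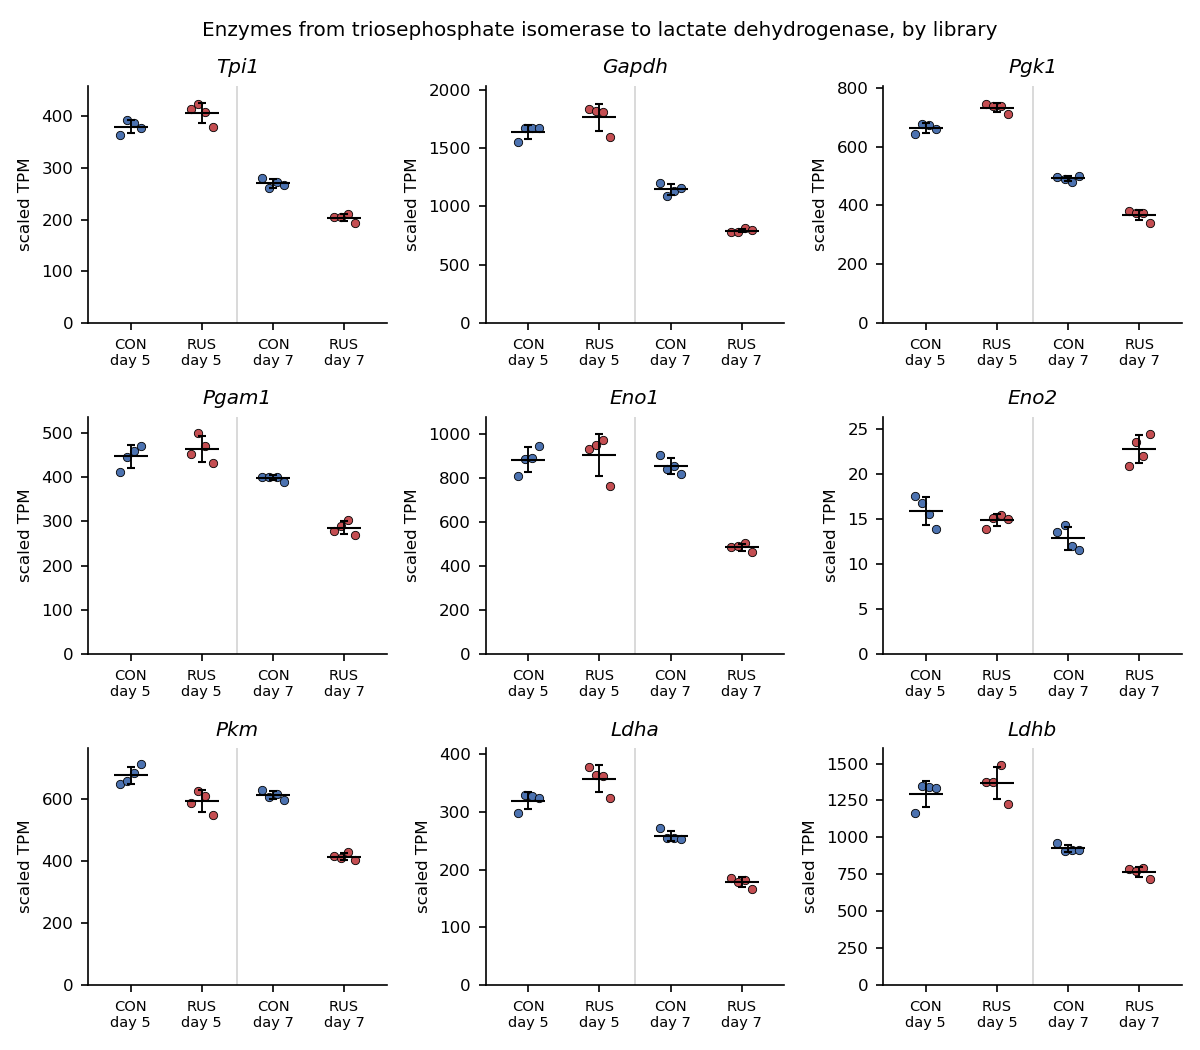
Scaled TPM of 9 glycolytic genes in each of the 16 libraries (points), by shRNA (blue CON, red RUS) and day, with black bars for the mean ± SD of 4 libraries. On day 7 the red points lie below the blue ones for 8 genes and above them for Eno2; on day 5 most groups overlap.

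The effect on these genes differed between the days. For the difference of the log2 fold change, day 7 minus day 5, 7 of 8 genes of lower glycolysis were called lower and Eno2 higher, beside 14.6% of all genes and 50.0% of abundant genes called lower. The value was −0.65 for Gapdh, −0.58 for Pgk1, −0.55 for Pgam1, −0.86 for Eno1, −0.71 for Ldha, −0.39 for Pkm and −0.36 for Ldhb, with limma adjusted p between 4.33e-06 (Pgk1) and 0.00435 (Ldhb). Tpi1 showed difference −0.51 ± 0.058 SE, limma adjusted p = 1.73e-05 and Eno2 difference 0.91 ± 0.12 SE, limma adjusted p = 5.43e-05. With quantile normalization the difference was 0.07 for Ldhb and was not called for Pkm, while with TPM as deposited the direction of all 8 held.

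Ratios within a library do not depend on scaling between libraries. The Ldhb to Ldha ratio of TPM stood on day 7 at 3.54, 3.56, 3.59 and 3.61 with shRNA CON and at 4.21, 4.32, 4.36 and 4.30 with shRNA RUS, without overlap, and it overlapped on day 5 (means 4.05 and 3.83). The Eno2 to Eno1 ratio on day 7 was 0.0150 ± 0.00143 with shRNA CON and 0.0469 ± 0.00445 with shRNA RUS (SD, n = 4), and overlapped on day 5. The Aldoc to Aldoa ratio was higher with shRNA RUS on both days, 1.48 ± 0.113 against 1.28 ± 0.0307 on day 5 and 1.93 ± 0.0946 against 1.21 ± 0.0465 on day 7 (SD, n = 4). The Pfkm to Pfkl ratio was 8.69 to 9.26 in shRNA RUS against 7.16 to 7.34 in shRNA CON on day 5, and overlapped on day 7.

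The ratio of MCT1 to MCT4 transcripts, Slc16a1 to Slc16a3, ranged on day 5 from 115 to 140 with shRNA CON and from 181 to 267 with shRNA RUS, and on day 7 from 31.6 to 41.2 and from 97.9 to 162. The Hk1 to Hk2 ratio was lower with shRNA RUS on day 5 (means 7.86 and 10.5), where the nearest libraries both rounded to 9.08, and overlapped on day 7. Slc2a3 to Slc2a1 and Pfkp to Pfkl overlapped on both days. No test was made on the ratios, which are drawn in the plot of paired genes.

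**Figure D3:**
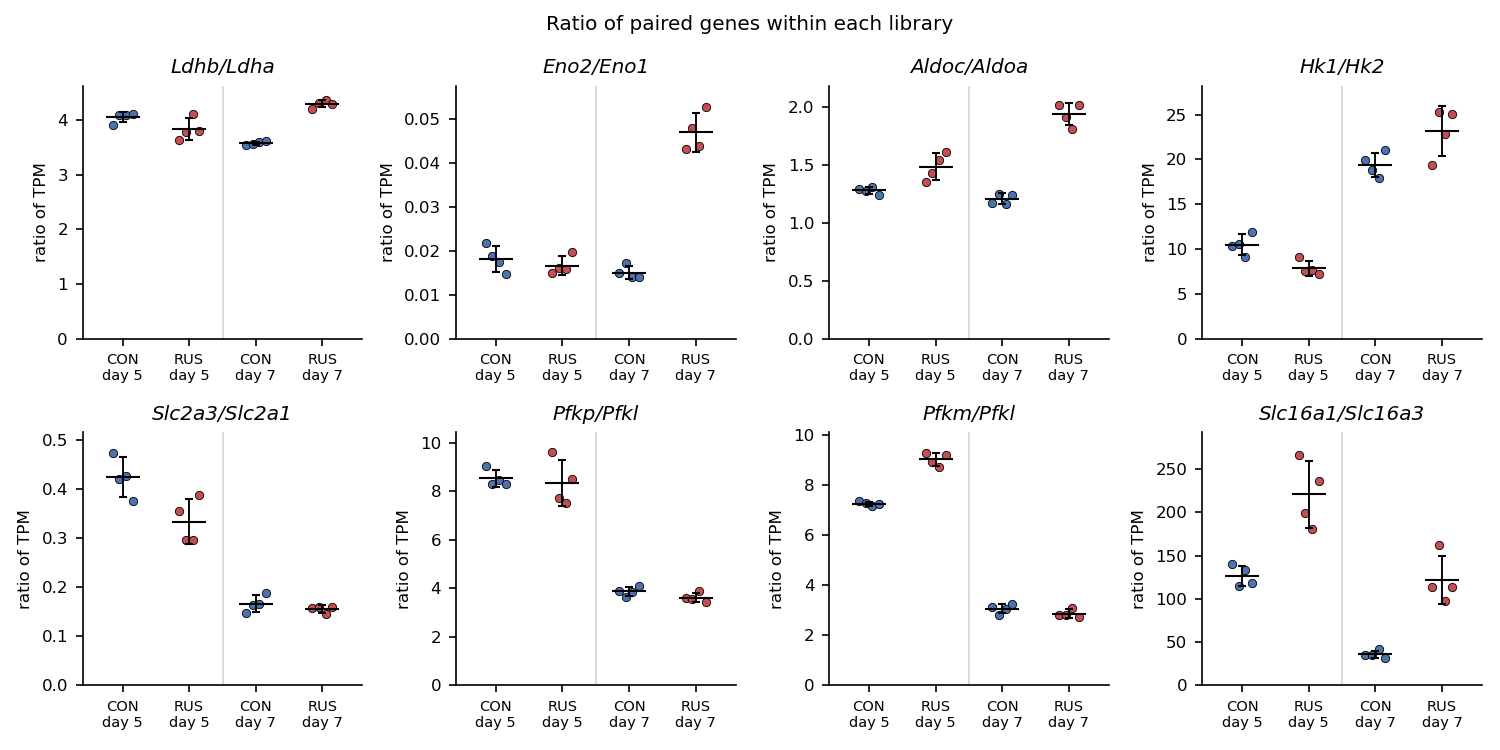
Ratio of the TPM of 2 genes within each library, for 8 pairs, by shRNA (blue CON, red RUS) and day, with black bars for the mean ± SD of 4 libraries. On day 7 the Ldhb/Ldha, Eno2/Eno1, Aldoc/Aldoa and Slc16a1/Slc16a3 ratios of shRNA RUS lie above all controls; Slc2a3/Slc2a1 and Pfkp/Pfkl overlap on both days.

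Of the 3 bifunctional enzymes that set fructose 2,6-bisphosphate, the strongest activator of phosphofructokinase, 2 were higher on day 7 and 1 lower on day 5. Pfkfb3, whose kinase activity dominates, stood on day 5 at 68.7, 59.1, 64.7 and 58.9 scaled TPM in shRNA CON and 65.3, 64.7, 65.8 and 78.4 in shRNA RUS, and on day 7 at 61.0, 59.9, 57.4 and 59.9 with shRNA CON and 96.1, 98.7, 96.7 and 93.0 with shRNA RUS. The day 7 increase was large beside the spread (log2 fold change 0.69 ± 0.034 SE, limma adjusted p = 4.48e-07), day 5 overlapped (0.12), and the difference between the days was called (difference 0.55 ± 0.089 SE, limma adjusted p = 0.000325). Pfkfb2 was higher on day 7 (log2 fold change 0.26 ± 0.043 SE, limma adjusted p = 0.000861), and Pfkfb4 was lower on day 5 (log2 fold change −0.29 ± 0.093 SE, limma adjusted p = 0.0401) and not called on day 7 (0.03). The day 5 call of Pfkfb4 was lost without any 1 library other than replicate 3 of shRNA RUS (limma adjusted p 0.0560 to 0.112), with quantile normalization (−0.16), and without the filter or the variance trend. The day 7 call of Pfkfb2 was lost in a fit over all 16 libraries (limma adjusted p = 0.0623).

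Around pyruvate dehydrogenase, the subunit Pdha1 and the kinases Pdk2 and Pdk4 rose on both days, and Pdk3 fell. Pdk4, the kinase induced by fasting and fatty acid use in many tissues, stood on day 5 at 15.9, 16.6, 16.8 and 15.5 scaled TPM in shRNA CON and 25.7, 22.6, 23.4 and 25.1 in shRNA RUS, and on day 7 at 11.9, 11.6, 12.5 and 13.7 with shRNA CON and 35.5, 40.9, 35.2 and 34.9 with shRNA RUS. The day 7 means were 12.4 ± 0.968 and 36.6 ± 2.86 (SD, n = 4), the largest increase among the members (log2 fold change 1.55 ± 0.072 SE, limma adjusted p = 3.28e-07). It was also higher on day 5 (0.58), and the effect was larger on day 7 (difference 0.96 ± 0.095 SE, limma adjusted p = 6.98e-06). Pdk2, the widely expressed kinase, stood on day 5 at 60.7, 60.4, 60.2 and 60.5 in shRNA CON and 89.6, 108, 110 and 99.9 in shRNA RUS, and on day 7 at 43.9, 42.8, 41.4 and 39.5 with shRNA CON and 85.8, 98.8, 102 and 108 with shRNA RUS. It had the largest day 5 increase of all members (log2 fold change 0.75 ± 0.066 SE, limma adjusted p = 6.70e-05) and a larger one on day 7 (log2 fold change 1.23 ± 0.069 SE, limma adjusted p = 8.67e-07; difference 0.47, limma adjusted p = 0.00178).

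Pdk3 stood on day 5 at 19.8, 24.1, 24.1 and 21.5 scaled TPM in shRNA CON and 15.6, 14.6, 14.3 and 14.6 in shRNA RUS, and on day 7 at 25.8, 25.4, 28.2 and 26.2 with shRNA CON and 15.4, 17.9, 17.4 and 14.0 with shRNA RUS. Its groups did not overlap on either day (log2 fold change −0.59 ± 0.076 SE, limma adjusted p = 0.000433, and log2 fold change −0.71 ± 0.079 SE, limma adjusted p = 5.73e-05). Pdk1, the kinase best known as a HIF target, was higher on day 5 (log2 fold change 0.29 ± 0.083 SE, limma adjusted p = 0.0243) and not called on day 7 (0.08). The day 5 call was lost with TPM as deposited (0.13), with 75th percentile scaling (0.22) and without replicate 2 or 3 of shRNA CON or 1 of shRNA RUS (limma adjusted p 0.0593 to 0.0737 without 1 library). Pdha1, the catalytic subunit that these kinases phosphorylate, was higher on both days (log2 fold change 0.51 ± 0.058 SE, limma adjusted p = 0.000244, and log2 fold change 0.61 ± 0.045 SE, limma adjusted p = 4.58e-06).

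The pentose phosphate genes moved little. G6pdx, glucose-6-phosphate dehydrogenase, the first and rate-limiting step, stood on day 5 at 120, 115, 116 and 116 scaled TPM in shRNA CON and 121, 114, 106 and 116 in shRNA RUS, and on day 7 at 69.4, 64.8, 66.7 and 70.8 with shRNA CON and 69.2, 65.9, 67.4 and 64.9 with shRNA RUS. The groups overlapped on both days and it was not called (log2 fold changes −0.03 and −0.02, SE 0.052 and 0.039), except that with TPM as deposited it was called lower on day 5 (−0.19, limma adjusted p = 0.0479). Pgd, the second dehydrogenase, was higher on both days (0.23 and 0.13), although its day 7 groups overlapped. Its day 5 call was lost with TPM as deposited (0.07) and quantile normalization (0.13), and its day 7 call with 75th percentile scaling (0.09), without the variance trend and without replicate 2 or 3 of shRNA CON (limma adjusted p 0.0523 and 0.0554). Tkt, transketolase, was lower on day 5 with overlapping groups (log2 fold change −0.23 ± 0.075 SE, limma adjusted p = 0.0428) and was not called on day 7. The day 5 call was lost without replicate 2, 3 or 4 of shRNA CON or 1 or 4 of shRNA RUS (limma adjusted p 0.0750 to 0.109), and without the filter or the variance trend. Taldo1, transaldolase, stood on day 7 at 251, 239, 231 and 237 in shRNA CON and 208, 203, 199 and 199 in shRNA RUS, after 269, 291, 299 and 291 with shRNA CON and 341, 343, 330 and 271 with shRNA RUS on day 5. It was lower on day 7 (log2 fold change −0.24 ± 0.034 SE, limma adjusted p = 0.000257), not called on day 5 (0.16), and its effect differed between the days (difference −0.41 ± 0.089 SE, limma adjusted p = 0.00278).

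The hypoxia response genes did not move as a block: 1 of 6 was higher and 3 lower on day 5, and 2 were higher and 4 lower on day 7. Over all genes the shares were 14.8% and 17.9% on day 5, and 23.4% and 25.8% on day 7. Egln3, the hydroxylase that marks HIF for destruction and is itself induced by HIF, stood on day 5 at 22.2, 23.2, 22.6 and 23.2 scaled TPM in shRNA CON and 13.5, 13.5, 13.0 and 12.4 in shRNA RUS, and on day 7 at 33.3, 33.0, 32.9 and 29.4 with shRNA CON and 17.7, 17.4, 16.3 and 15.4 with shRNA RUS. It had the largest day 5 decrease of the members (log2 fold change −0.79 ± 0.054 SE, limma adjusted p = 2.13e-05) and stayed far below the controls on day 7 (log2 fold change −0.94 ± 0.061 SE, limma adjusted p = 2.00e-06). Vegfa, the angiogenic growth factor, stood on day 5 at 33.8, 35.3, 32.3 and 30.9 in shRNA CON and 19.0, 24.0, 21.8 and 23.3 in shRNA RUS, and on day 7 at 28.8, 27.7, 28.5 and 25.8 with shRNA CON and 22.9, 24.2, 25.7 and 25.2 with shRNA RUS. It was lower on both days, with a smaller decrease on day 7 (−0.59 and −0.18 on the log2 scale; difference 0.40 ± 0.096 SE, limma adjusted p = 0.00550 for the difference). The day 7 call was lost without replicate 1 or 3 of shRNA CON or 2 of shRNA RUS (limma adjusted p 0.0507 to 0.0554).

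Adm, the vasodilator peptide adrenomedullin, changed direction. It stood on day 5 at 12.9, 14.7, 14.8 and 14.5 scaled TPM in shRNA CON and 10.3, 11.1, 10.4 and 9.01 in shRNA RUS, and on day 7 at 4.82, 5.89, 4.77 and 5.74 with shRNA CON and 7.17, 7.75, 9.23 and 11.1 with shRNA RUS. All 4 libraries with shRNA RUS lay below the controls on day 5 (log2 fold change −0.48 ± 0.081 SE, limma adjusted p = 0.00185) and above them on day 7 (log2 fold change 0.71 ± 0.14 SE, limma adjusted p = 0.00216), a difference of 1.18 (limma adjusted p = 0.000124). Bnip3, which directs mitochondria to autophagy, stood on day 5 at 54.1, 62.1, 57.4 and 57.4 in shRNA CON and 70.2, 63.3, 65.7 and 66.1 in shRNA RUS, and on day 7 at 59.3, 58.1, 58.2 and 55.3 with shRNA CON and 63.8, 66.4, 66.0 and 66.6 with shRNA RUS. Its increase was small on both days (0.20 and 0.19); on day 5 it was not called with any of the 3 other scalings, nor without replicate 1, 3 or 4 of shRNA CON or 1 or 3 of shRNA RUS (adjusted p 0.0511 to 0.0666 by limma), nor without the variance trend.

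Car9, the membrane carbonic anhydrase that is a classical hypoxia marker, stood on day 5 at 2.58, 2.64, 2.54 and 3.17 scaled TPM in shRNA CON and 2.13, 2.10, 2.66 and 2.17 in shRNA RUS, and on day 7 at 3.21, 3.33, 3.48 and 3.25 with shRNA CON and 1.17, 1.92, 1.52 and 2.44 with shRNA RUS. It was lower on day 7 without overlap (log2 fold change −0.92 ± 0.19 SE, limma adjusted p = 0.00310) and not called on day 5 (−0.26), except with TPM as deposited (−0.41, limma adjusted p = 0.0316). Its effect on day 7 minus that on day 5 passed the test narrowly (difference −0.67 ± 0.23 SE, limma adjusted p = 0.0401). It was lost with TPM as deposited, with 75th percentile scaling, without the filter on low values and without any 1 of replicates 1, 2 and 3 of shRNA CON and 1 and 3 of shRNA RUS on day 5, or of the 4 shRNA CON replicates and replicates 1 and 3 of shRNA RUS on day 7 (adjusted p 0.0521 to 0.0807 by limma without 1 of these libraries). Ankrd37, another HIF-induced gene, was lower on day 7 with overlapping groups (log2 fold change −0.67 ± 0.24 SE, limma adjusted p = 0.0452), and this call was lost without replicate 2, 3 or 4 of shRNA CON or 2, 3 or 4 of shRNA RUS (adjusted p 0.0513 to 0.115 by limma), with quantile normalization, and without the filter or the variance trend.

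Among the 9 HIF subunits and oxygen-sensing genes, 2 were higher and 2 lower on day 5, and 4 were higher and 2 lower on day 7. The shares of all genes were 14.8% and 17.9% on day 5, and 23.4% and 25.8% on day 7. Hif1a, the oxygen-regulated subunit of HIF1, stood on day 5 at 35.0, 32.4, 33.3 and 31.8 scaled TPM in shRNA CON and 14.1, 13.6, 13.1 and 19.3 in shRNA RUS, and on day 7 at 46.2, 44.4, 44.4 and 51.0 with shRNA CON and 26.9, 23.8, 24.5 and 22.8 with shRNA RUS. It was lower without overlap on both days (−1.15 and −0.92 on the log2 scale, limma adjusted p = 0.000113 and 3.14e-06). Epas1, which encodes HIF2A, stood on day 5 at 18.4, 19.4, 19.1 and 18.2 in shRNA CON and 30.7, 35.3, 31.1 and 35.6 in shRNA RUS, and on day 7 at 11.3, 11.3, 12 and 10.9 with shRNA CON and 50.6, 51.9, 52.0 and 59.9 with shRNA RUS. It was higher on both days (0.82 and 2.23, limma adjusted p = 4.63e-05 and 4.60e-08). Egln2, another HIF hydroxylase, was higher on both days (0.62 and 0.83), the HIF partner Arnt was lower on day 5 (−0.42), and on day 7 Arnt2 was higher (0.44) and Vhl, which recognises hydroxylated HIF, was lower (−0.27). HIF activity is set mainly by protein stability, which these data do not measure. These genes are drawn with the regulators of glycolysis in the plot of entry enzymes, regulators and oxygen-response genes.

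**Figure D4:**
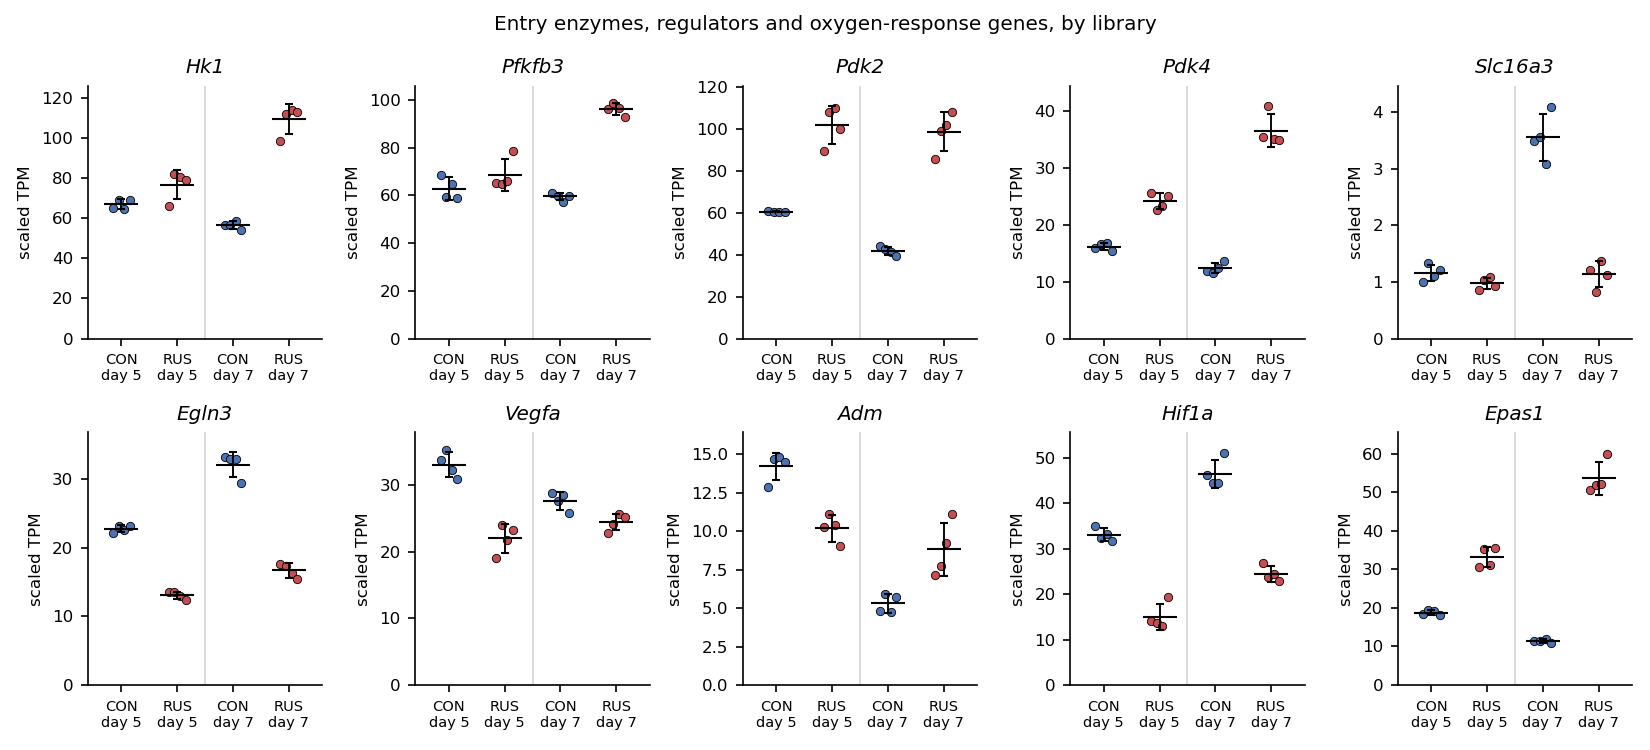
Scaled TPM in each of the 16 libraries (points) of 8 members and of Hif1a and Epas1, by shRNA (blue CON, red RUS) and day, with black bars for the mean ± SD of 4 libraries. Egln3 and Hif1a lie lower with shRNA RUS on both days, Pdk2, Pdk4 and Epas1 higher, Slc16a3 lies lower on day 7, and Adm lies lower on day 5 and higher on day 7.

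Other genes of the same pathways, on lists that hold none of the 39, moved in both directions. Of the other HIF targets, 7 of 36 tested were higher and 12 lower on day 5, and 14 of 35 were higher and 13 lower on day 7. Over all genes tested, 14.8% were called higher and 17.9% lower on day 5, and 23.4% and 25.8% on day 7. Ak4, a mitochondrial adenylate kinase, was lower on both days (−1.74 and −1.87 on the log2 scale), as were the carbonic anhydrase Car12 (−1.18 and −1.77) and Selenbp1 (−0.64 and −0.85). On day 5 the largest increases were in Gbe1, the glycogen branching enzyme (0.69), Anxa2 (0.44) and Hilpda, a lipid droplet protein (0.40), and on day 7 in Mxi1, a Myc antagonist (0.67), Plod1, a collagen lysyl hydroxylase (0.48), and Wsb1 (0.43).

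Of the other glycolysis and gluconeogenesis genes, 7 of 21 were higher and 3 lower on day 5, and 4 of 23 were higher and 9 lower on day 7. All genes tested gave 14.8% and 17.9% on day 5, and 23.4% and 25.8% on day 7. Of the glycerol phosphate branch, Gpd1l rose by 0.71 on day 5 and 1.25 on day 7 on the log2 scale, and the mitochondrial Gpd2 by 0.51 and 0.88. Gpd1 rose by 0.45 on day 5 and was not called on day 7 (0.10). Pgam2, the muscle phosphoglycerate mutase, rose by 0.90 and 1.11. Day 5 decreases were led by Adpgk, which phosphorylates glucose with ADP (−0.45, and −0.51 on day 7), Tigar, a fructose bisphosphatase (−0.43), and Pgm2 (−0.25), and day 7 decreases included the mutarotase Galm (−0.94) and Eno1b (−0.83), a near-identical copy of Eno1 with which reads may be shared.

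Of the other transporters, 4 of 13 were higher and 5 lower on day 5, and 2 of 14 were higher and 6 lower on day 7. For all genes the shares were 14.8% and 17.9% on day 5, and 23.4% and 25.8% on day 7. Slc2a8 was higher on both days (0.46 and 0.35), both subunits of the mitochondrial pyruvate carrier were higher on day 5 (Mpc1 0.33, Mpc2 0.39), and Slc2a12 was higher on day 7 (0.34). Lower on both days were Slc2a6 (−0.80 and −1.12), the insulin-dependent carrier Slc2a4 (−0.62 and −0.96), Slc16a7, the carrier MCT2 (−0.97 and −0.91), and Slc2a9, a urate carrier (−0.62 and −1.10).

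Of 8 other genes listed with the pyruvate dehydrogenase complex, among them Pcx, which is outside it, none was higher and 1 lower on day 5. On day 7, 3 were higher and 3 lower. The shares of all genes, for this and the next lists, were 14.8% higher and 17.9% lower on day 5, and 23.4% and 25.8% on day 7. Pdp1, the phosphatase that reverses the kinases, was lower on both days (−0.26 and −0.55). On day 7 the phosphatase Pdp2 (0.45), the phosphatase regulator Pdpr (0.45) and the pyruvate carboxylase Pcx (0.40) were higher. The subunits Dld (−0.27) and Pdhb (−0.25) were lower on that day. Of 10 other pentose phosphate genes, Prps1 was higher (0.23) and Rpia lower (−0.32) on day 5, and on day 7, 2 were higher and 4 lower, among them H6pd (0.58), Pgls (−0.65), Rbks (−0.64) and Dera (−0.47). Of 9 targets of NRF2, a factor that also raises pentose phosphate genes, 5 were higher and none lower on day 5, and 7 were higher and 1 lower on day 7. Hmox1, heme oxygenase, rose by 0.62 and 1.16, Osgin1 by 0.49 and 0.88, Srxn1 by 0.26 and 0.70 and Nqo1 by 0.63 on day 5, and Gclc fell by 0.14 on day 7.

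Markers of proliferation and of cell types moved alongside. Their counts stand beside 14.8% of all genes called higher and 17.9% lower on day 5, and 23.4% and 25.8% on day 7. The 5 neural stem cell markers summed to 11768 to 13140 TPM in shRNA CON and 15600 to 17206 TPM in shRNA RUS on day 5, and to 6439 to 6934 and 7005 to 7727 TPM on day 7, without overlap on either day. Of these 5, 3 were higher and 1 lower on day 5 and 2 higher and 1 lower on day 7: Vim, which carried most of the sum, rose by 0.55 and 0.17 on the log2 scale, and Nes fell by 0.87 and 1.19. The 6 astrocyte markers summed to 3232 to 3530 TPM in shRNA CON and 3674 to 3980 TPM in shRNA RUS on day 5, and to 1898 to 1949 and 1951 to 2214 TPM on day 7. Of these 6, 1 was higher and 1 lower on day 5 and 2 higher and 2 lower on day 7: Gfap rose by 0.60 and 0.35, Slc1a2 fell by 0.65 on day 5 and S100b by 0.54 on day 7. The 15 proliferation genes were all lower with shRNA RUS on both days, and summed to 1122 ± 34.0 TPM in shRNA CON and 557 ± 29.7 TPM in shRNA RUS on day 5 and to 1187 ± 10.1 and 523 ± 23.8 TPM on day 7. The 6 microglia markers summed to 73.8 to 79.6 TPM in shRNA CON and 59.3 to 73.2 TPM in shRNA RUS on day 5, with 2 of 6 lower, and to 193 to 207 and 83.7 to 105 TPM on day 7, with 6 of 6 lower. The 7 oligodendrocyte lineage markers summed to 241 to 316 TPM in shRNA CON and 154 to 217 TPM in shRNA RUS on day 5, with 4 of 7 lower, and to 401 to 448 and 262 to 289 TPM on day 7, with 6 of 7 lower. The 6 endothelial and pericyte markers summed to 20.6 to 22.7 TPM in shRNA CON and 16.2 to 24.2 TPM in shRNA RUS on day 5, and to 18.2 to 19.9 and 31.0 to 33.8 TPM on day 7. Pdgfrb of pericytes was higher (0.32 on day 5 and 1.32 on day 7 on the log2 scale) and Kdr of endothelium lower (−0.91 and −1.30). The 5 fibroblast and meningeal markers summed to 4.93 to 19.2 TPM over the 16 libraries, and overlapped on both days, with none called on day 5 and 2 of the 4 tested higher on day 7 (Col1a1 1.23, Col3a1 0.93). Their part in the results on the 39 genes was not tested.

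Between the days, which also differ in medium, most of the pathway declined in both cultures. In shRNA CON, 7 members were higher and 30 lower on day 7 than on day 5, with 26.9% of all 23789 genes called higher and 21.6% lower, and among abundant genes 15.1% and 54.8%. In shRNA RUS, 8 were higher and 25 lower, beside 35.0% and 25.8% of all genes and 16.3% and 69.4% of abundant ones. The members' median log2 fold change was −0.49 in shRNA CON and −0.57 in shRNA RUS, beside −0.197 and −0.444 for abundant genes, and without replicate 4 of day 5 or replicate 1 of day 7 8 were higher and 25 lower in shRNA RUS, as with all libraries. With TPM as deposited, 71.4% in place of 55.5% of all called genes were higher in shRNA CON and 76.9% in place of 57.5% in shRNA RUS, and the medians of all genes were 0.205 in place of 0.067 and 0.415 in place of 0.131.

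All 4 pentose phosphate genes were lower on day 7 in both cultures, but Pgd turned to 0.03 in shRNA CON and 0.10 in shRNA RUS with TPM as deposited. The decrease of Pgd was also not called with quantile normalization in either culture, nor in shRNA CON with 75th percentile scaling or without replicate 3 of day 7 (limma adjusted p = 0.0557). G6pdx went from 127 ± 2.68 to 62.9 ± 2.69 scaled TPM in shRNA CON (SD, n = 4, scaled over both days) and from 124 ± 7.09 to 61.3 ± 1.83 in shRNA RUS, and the difference of its effect between the days was not called (SE 0.063, limma adjusted p = 0.970). Hk2 fell by 1.34 on the log2 scale in shRNA CON and by 1.27 in shRNA RUS, and Pfkm by 1.07 and 1.31. Of the 8 genes of lower glycolysis, 7 dropped further in shRNA RUS, though with quantile normalization not Ldhb (difference 0.07) and without a call for Pkm (−0.02), and Eno2 went the other way. Gapdh fell by 0.75 in shRNA CON and by 1.40 in shRNA RUS, Ldha by 0.53 and 1.24, and Eno1 by 0.28 and 1.14. With quantile normalization the decrease of Eno1 in shRNA CON was −0.07 and not called (limma adjusted p = 0.103). The tests of these differences are those of the effect on day 7 minus day 5, given with each gene.

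For 4 members the change between the days was called in both cultures with opposite signs. Hk1 fell by 0.47 in shRNA CON and rose by 0.27 in shRNA RUS on the log2 scale. Eno2 fell by 0.54 and rose by 0.37, Pfkfb3 fell by 0.31 and rose by 0.25, and Pdk4 fell by 0.61 and rose by 0.35. With TPM as deposited the decrease of Pfkfb3 in shRNA CON was not called (−0.15, limma adjusted p = 0.142). Slc16a3 rose in shRNA CON (log2 fold change 1.32 ± 0.15 SE, limma adjusted p = 2.18e-06) and was not called in shRNA RUS (log2 fold change −0.04 ± 0.15 SE, limma adjusted p = 0.843). Slc2a1 rose in both (0.54 and 0.44), Slc2a3 fell in both (−0.81 and −0.65), and Adm fell by 1.64 in shRNA CON and by 0.47 in shRNA RUS, where its groups overlapped and the call was lost with TPM as deposited (−0.14, limma adjusted p = 0.288). These pairs are set against each other in the plot of the change from day 5 to day 7.

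**Figure D5:**
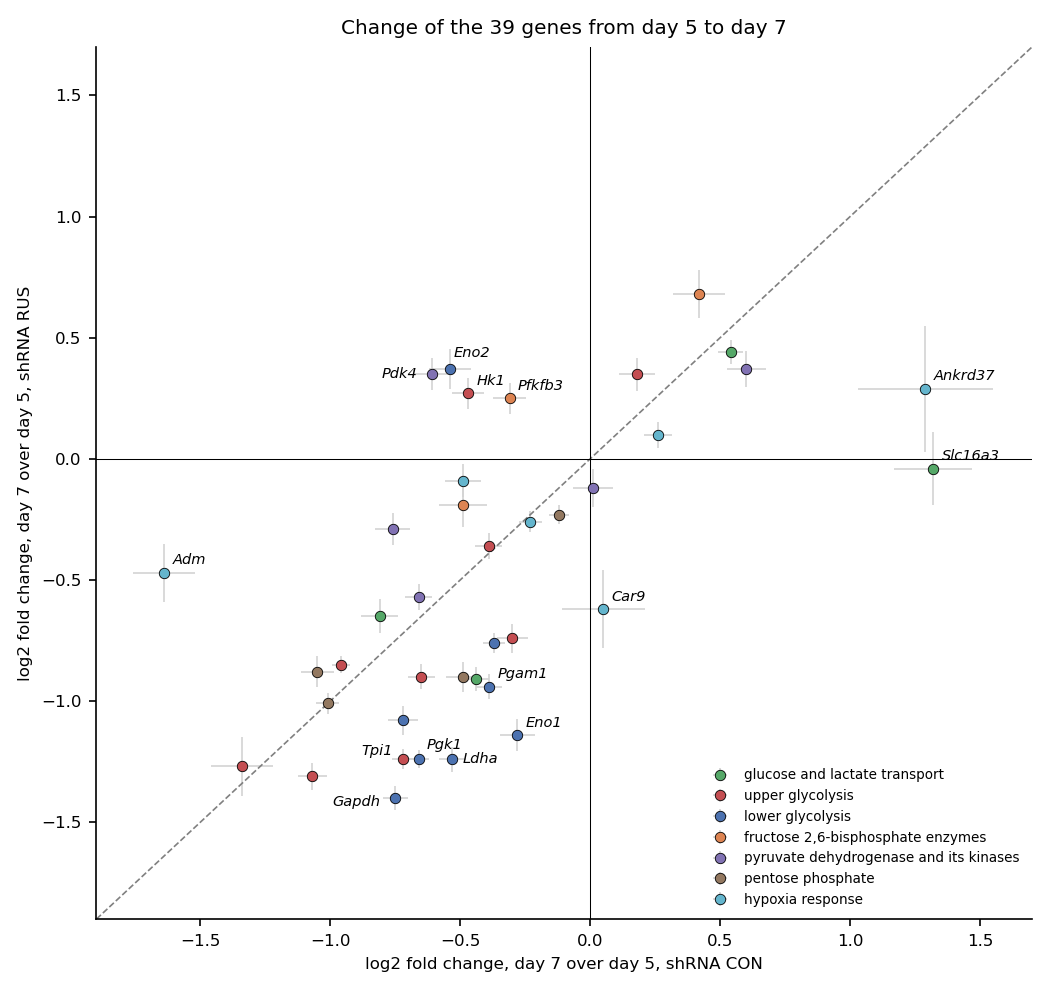
Log2 fold change from day 5 to day 7 of each of the 39 genes in shRNA CON (x axis) and shRNA RUS (y axis), coloured by pathway step, with bars for the SE and a dashed line of equality; genes whose changes differ by at least 0.5 are named. Hk1, Eno2, Pfkfb3 and Pdk4 lie left of 0 and above 0, and Gapdh, Pgk1, Tpi1, Ldha and Eno1 lie below the line.

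For the knockdown effect on day 7 minus that on day 5, 7 members were called higher and 15 lower, beside 15.2% and 14.6% of all 23789 genes and 12.4% and 50.0% of abundant genes. The members' median was −0.11, beside 0.038 for all genes and −0.229 for abundant ones. Of the 15 that were lower, 7 were genes of lower glycolysis, 4 of upper glycolysis, 2 transporters, and Taldo1 and Car9. The 7 that were higher were Hk1, Eno2, Pfkfb3, Pdk2, Pdk4, Vegfa and Adm. The count was 8 higher and 15 lower without the library labelled shRNA RUS replicate 4 of day 5, and 7 and 14 without replicate 1 of day 7. With TPM as deposited, 73.5% in place of 51.1% of all called genes were higher, the median of all genes was 0.192 in place of 0.038, and 14 members were higher.

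Positions are those of GENCODE vM21 (GRCm38). On minus strands, Hk1 spans 62268855 to 62379908 of chromosome 10, Pdk4 spans 5483351 to 5496309 of chromosome 6 and Pdk2 spans 95026258 to 95041354 of chromosome 11. On plus strands, Slc16a3 spans 120948480 to 120960868 of chromosome 11, Eno1 spans 150236721 to 150248879 of chromosome 4 and Adm spans 110627661 to 110629820 of chromosome 7. Eno2 (from 124760053 to 124769673), Tpi1 (from 124810586 to 124814296) and Gapdh (from 125161715 to 125166467) are close neighbours on chromosome 6, all on its minus strand, and on day 7 Eno2 was higher while Tpi1 and Gapdh were lower. The exons of 16 of the 39 genes overlap those of another gene in that annotation, Hk1 and Gapdh among them, and the sources used here do not say whether reads were counted by strand, so part of their reads may come from the partner. Gapdh, Pgk1, Pgam1 and Ldha are also known to have processed pseudogenes, to which reads could have been assigned.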

How the data were processed

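PolyA RNA of 16 libraries (shRNA CON or shRNA RUS, day 5 or day 7, 4 each) was grouped by the labels. The authors aligned reads with STAR to mm10 with the GRCm38.99 transcripts, quantified them with RSEM, and deposited TPM of each library in 1 table for each day. The deposited base mean is a signal, the authors' mean of DESeq2-normalized counts. The tables also hold the authors' log2 fold change, its error, test statistic, p and adjusted p, which were not used. TPM keeps no depth, so no interval or detection limit is given. Columns name shRNA and replicate, and each table's name gives the day. On day 5, 3 lines name no gene.

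Each library was scaled by its median ratio to the geometric mean of the libraries in a fit, taken over genes at 1 TPM or more in all of them. Genes averaging 0.1 TPM or more were tested on log2(scaled TPM + 0.1) with limma 3.58.1 (R 4.3.3; lmFit, eBayes with trend, two-sided, Benjamini-Hochberg over all genes, threshold 0.05): 8 libraries for each day, and 1 fit over all 16 for changes between the days, on 55365 lines alike in both tables (106 left out). The test was checked on simulated data. Python 3.11.15, numpy 2.4.6, pandas 2.3.3 and matplotlib 3.10.9 made summaries and plots. The members, gene lists and tests were chosen with earlier results of these data known. Values per library are printed for called members averaging 1 TPM or more and among the 5 largest increases or decreases of a day, those whose effect differed between the days, and Slc2a1, Hk2, Pkm, Ldha, Ldhb, G6pdx, Vegfa and Bnip3; from other pathway lists, up to 3 called genes averaging 1 TPM or more are named per direction and day. Hif1a and Epas1 are given in full by choice after seeing the data. Alternatives changed pseudocount, filter, scaling, variance trend, fold cutoff, libraries and replicate block. One gene is not reported here.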

Additional observations from a re-analysis of the deposited data

Results flagged for a closer look

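Within single groups of 4 libraries, 1 library stood apart from the other 3 for some members, by a gap past Dixon's 95% critical value for 4 samples. Chance gives this in about 1 of 20 groups, and 156 groups of members by shRNA and day were looked at; 17 stood apart. In shRNA RUS replicate 1 of day 7, this was Hk1 at 98.4 scaled TPM (others 112 to 114). In shRNA RUS replicate 1 of day 5, this was Hk2 at 7.26 scaled TPM (others 10.5 to 11). In shRNA CON replicate 1 of day 5, this was Gpi1 at 514 scaled TPM (others 564 to 573), Gapdh at 1552 scaled TPM (others 1669 to 1676), Ldha at 298 scaled TPM (others 324 to 329), Ldhb at 1164 scaled TPM (others 1332 to 1347) and Adm at 12.9 scaled TPM (others 14.5 to 14.8). In shRNA RUS replicate 3 of day 7, this was Gpi1 at 518 scaled TPM (others 484 to 489). In shRNA RUS replicate 4 of day 5, this was Gapdh at 1591 scaled TPM (others 1806 to 1839) and Pfkfb3 at 78.4 scaled TPM (others 64.7 to 65.8). In shRNA CON replicate 4 of day 7, this was Pgam1 at 390 scaled TPM (others 401 to 401) and Egln3 at 29.4 scaled TPM (others 32.9 to 33.3). In shRNA CON replicate 1 of day 7, this was Ldha at 272 scaled TPM (others 253 to 255) and Ldhb at 962 scaled TPM (others 910 to 915). In shRNA RUS replicate 2 of day 7, this was Pdk4 at 40.9 scaled TPM (others 34.9 to 35.5). In shRNA CON replicate 4 of day 5, this was Car9 at 3.17 scaled TPM (others 2.54 to 2.64). In shRNA RUS replicate 3 of day 5, this was Car9 at 2.66 scaled TPM (others 2.10 to 2.17).

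The effect of shRNA RUS differed between day 5 and day 7 for 22 members by limma's test of the difference (day 7 minus day 5 of the log2 fold change, adjusted p under 0.05, over 16 libraries). The difference was positive for 7: 0.74 for Hk1, 0.91 for Eno2, 0.55 for Pfkfb3, 0.47 for Pdk2, 0.96 for Pdk4, 0.40 for Vegfa and 1.18 for Adm. It was negative for 15: −0.47 for Slc16a1, −1.36 for Slc16a3, −0.24 for Gpi1, −0.24 for Pfkm, −0.44 for Aldoa, −0.51 for Tpi1, −0.65 for Gapdh, −0.58 for Pgk1, −0.55 for Pgam1, −0.86 for Eno1, −0.39 for Pkm, −0.71 for Ldha, −0.36 for Ldhb, −0.41 for Taldo1 and −0.67 for Car9. The adjusted p ran from 4.33e-06 for Pgk1 to 0.0401 for Car9. Day, table and medium cannot be told apart for them.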

How the results depend on the processing

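Calls on single members rarely changed direction. Over the alternatives, 3136 values of called members kept their direction and side of the threshold, 127 kept the direction and missed it, and 9 reversed. With TPM as deposited, the log2 change between the days became 0.07 for Bnip3, 0.04 for Pdk2 and 0.10 for Pgd in shRNA RUS and 0.03 for Pgd in shRNA CON, and the day 5 effect on Pgk1 became −0.01. With quantile normalization, Pgk1 on day 5 became −0.10, Aldoc between the days in shRNA RUS 0.42, and the difference of the effect 0.13 for Gpi1 and 0.07 for Ldhb. Leaving aside the cutoff on fold change below, the calls that held in every alternative were 13 of 21 on day 5, 29 of 33 on day 7, 31 of 37 in shRNA CON, 27 of 33 in shRNA RUS and 16 of 22 for the difference.

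Asking also for a fold change of at least 1.5 left 2 higher and 3 lower on day 5, 9 and 6 on day 7, 3 higher and 15 lower in shRNA CON, 1 higher and 19 lower in shRNA RUS, and 4 higher and 5 lower for the difference, whose higher count was 14 with TPM as deposited and 11 with quantile normalization. On day 5, 5 were lower without the variance trend and with no filter on low values. Leaving out 1 library at a time gave 10 to 18 higher and 5 to 7 lower on day 5 (5 lower without replicates 2, 3 or 4 of shRNA CON or 1 of shRNA RUS), 15 to 17 each way on day 7, 6 to 7 and 29 to 30 in shRNA CON, 8 to 9 and 25 to 27 in shRNA RUS, and 7 to 8 and 13 to 16 for the difference.

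Replicate numbers gave no clear pairing of the samples. Deviations from the group mean, compared across genes, correlated at −0.255 to −0.0135 on day 5 and 0.0159 to 0.101 on day 7 between libraries of the same number. Between libraries of different numbers they correlated at −0.210 to 0.265 and −0.0987 to 0.0923. With 4 libraries in a group, these values cannot settle whether the numbers pair samples. With the replicate number as a block, 11 members were higher and 5 lower on day 5, 15 and 15 on day 7, and 7 and 13 for the difference; blocked across the days, an alternative added after seeing the data, 7 were higher and 30 lower in shRNA CON and 8 and 25 in shRNA RUS.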
